A study of Mus musculus with 9 samples.

Results

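The genes described here encode interleukin-15 (IL-15), the chains of its receptor, and the kinases and transcription factors that carry its signal. They are Il15, Il15ra, Il2rb, Il2rg, Il2ra, Jak1, Jak3, Stat5a, Stat5b and Stat3, chosen by name, and all 10 were found by Entrez identifier among the 27179 genes of the count files. RNA sequencing libraries came from natural killer (NK) cells of the spleen of C57BL/6 mice. Id2-null cells (3 libraries) and wild-type (WT) cells (3 libraries) had both been grown in IL-15 for 7 days, so no culture without IL-15 serves as a control. A further 3 wild-type libraries, 1 each of populations named Immature, M1 and M2, were made from cells sorted from spleen without culture. The study's title names the question, the part of ID2, a helix-loop-helix protein that binds and blocks E proteins, in the sensitivity of NK cells to IL-15. How Id2 was deleted, in which cells, and the markers used for sorting were not given in the sources used here. Labels give culture to samples by number only, and listed order was used to assign it.

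IL-15 is presented to NK cells largely on the surface of other cells, bound to the IL-15 receptor alpha chain. NK cells receive it through CD122, encoded by Il2rb, and the common gamma chain, encoded by Il2rg. The kinases JAK1 and JAK3 bind these chains and phosphorylate STAT5A and STAT5B, which enter the nucleus and maintain NK cell survival, growth and cytotoxic capacity. CD25, encoded by Il2ra, does not bind IL-15. It is the alpha chain that gives the receptor a high affinity for IL-2, and its gene is a known target of STAT5.

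The libraries held 4128414 to 4831831 counts, with counts in 13888 to 14432 genes. Levels are CPM, counts relative to the library total, scaled by TMM over all 9 libraries, and a count of 0 allows a level of up to 3 counts, which is 0.578 to 0.764 CPM on this scale. Whether replicates came from separate animals is not stated, and p-values cover the spread between libraries, which may be technical. Id2 itself had 44 to 113 counts in the libraries labelled Id2-null and 1925 to 1958 in WT. In each genotype replicate 3 deviated most from its group mean. The median absolute deviation in log2 was 0.190 against 0.133 and 0.136 in Id2-null, but 0.129 against 0.111 and 0.118 in WT. Deviations of the 2 replicates 3 correlated at r = 0.418 across genes, beside 0.353 for replicates 1 and 0.242 for replicates 2. All 10 NK cell markers examined, Ncr1 and Klrb1c among them, were at 10 CPM or more in every group, with sums of 5151 to 5352 CPM in the Id2-null cultures and 8012 to 11230 CPM in WT cultures. Gzma (means of 465 and 3704 CPM) and Prf1 (501 and 1451 CPM) made most of that gap. Fcer1g (502 and 648 CPM), Nkg7 (697 and 781 CPM) and Cd244a (265 and 320 CPM) also had lower means in Id2-null. Means of Ncr1 (595 and 474 CPM), Klrb1c (816 and 807 CPM), Klrd1 (294 and 286 CPM), Klrk1 (551 and 459 CPM) and Tyrobp (592 and 501 CPM) were not lower. B cell markers summed to at most 1.98 CPM and erythroid and platelet markers to at most 0.832 CPM in the cultures. Sex moved with genotype, since Xist was at 657 to 874 CPM in the Id2-null cultures and 0.208 to 1.16 CPM in WT libraries while Ddx3y, on the Y chromosome, was at 0.220 to 0.634 and 71.8 to 78.5 CPM. Genotype and sex cannot be told apart in any comparison of the cultures. The sorted libraries held both transcripts, Xist at 90.4 to 127 CPM and Ddx3y at 37.1 to 46.3 CPM.

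Several of these genes lie beside each other in the genome (GRCm38, coordinates from RefSeq). Il2ra (Entrez 16184, chromosome 2, positions 11642792 to 11693194) and Il15ra (16169, positions 11705172 to 11733985) are 11977 bases apart. Stat5b (20851, chromosome 11, positions 100780731 to 100859004), Stat5a (20850, 100859351 to 100885169) and Stat3 (20848, 100886806 to 100939594) follow one another with gaps of 346 and 1636 bases. Il15 (16168) and Jak3 (16453) are both on chromosome 8, at 82331624 to 82403252 and 71676383 to 71690577. Jak1 (16451) is on chromosome 4 at 101151974 to 101265282 and Il2rb (16185) on chromosome 15 at 78479256 to 78511621. Il2rg (16186) is on the X chromosome at 101264385 to 101268255. All are protein-coding genes, and counts were given per gene over its counted length, not per exon or isoform.

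The RefSeq table of promoters (GRCm38.p6) held 11 windows for 8 of the genes, each from 250 bases before to 50 after a transcript start, and none for Il2rb or Il15. These sequences are shown because Il2ra and Jak1 are the genes whose Id2-null and WT values did not overlap, and Il15ra is the close neighbour of Il2ra whose values did. Each is the part of a window that lies before the outermost start of the gene, 5′ to 3′ on the gene's own strand, and capitals mark E-boxes (CANNTG, the core letters bound by E proteins and other helix-loop-helix factors).
Il2ra, chr2:11642542-11642791, plus strand: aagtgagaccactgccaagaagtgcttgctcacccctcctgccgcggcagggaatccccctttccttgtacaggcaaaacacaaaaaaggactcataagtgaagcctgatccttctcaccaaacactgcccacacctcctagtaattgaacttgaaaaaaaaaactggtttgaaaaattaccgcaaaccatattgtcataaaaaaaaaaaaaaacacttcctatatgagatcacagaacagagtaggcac
Il15ra, chr2:11705043-11705171, plus strand: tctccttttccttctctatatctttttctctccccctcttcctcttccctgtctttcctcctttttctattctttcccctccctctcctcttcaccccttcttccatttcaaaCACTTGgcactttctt
Jak1, chr4:101265283-101265473, minus strand: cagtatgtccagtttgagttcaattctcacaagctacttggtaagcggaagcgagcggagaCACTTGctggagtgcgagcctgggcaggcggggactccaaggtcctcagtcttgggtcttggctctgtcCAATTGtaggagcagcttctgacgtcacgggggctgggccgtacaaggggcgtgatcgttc
The 191 bases before Jak1 hold 2 E-boxes, CACTTG and CAATTG, 130 and 61 bases before the gene start, and the 129 bases before Il15ra hold 1, CACTTG, 16 bases before it. The 250 bases before Il2ra hold none. Over whole windows, 7 of the 11 held an E-box, against 72.3% of all 32851 windows in the table. The core letters of a STAT site (TTCNNNGAA) were in 0 of the 11 windows and in 8.30% of all windows. Both motifs read the same on either strand, and a window without them says nothing of more distant elements.

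Per kilobase of counted length, the signalling chains stood far above the other genes in WT cultures. Il2rb stood at 1041 ± 66.0 CPM per kilobase (SD, n = 3) and Il2rg at 405 ± 28.6. Among the kinases Jak1 stood at 179 ± 4.40 and Jak3 at 76.7 ± 18.6 CPM per kilobase, the latter overlapping Stat3 at 63.1 ± 4.16. The STAT5 genes were lower, Stat5b at 19.9 ± 0.769 and Stat5a at 14.1 ± 1.23 CPM per kilobase. Il2ra at 18.9 ± 4.70 overlapped both of them. Il15ra was at 9.05 ± 0.790 and Il15 at 0.212 ± 0.0971 CPM per kilobase. In the Immature library the order differed at 2 places, with Jak3 (46.6 CPM per kilobase) below Stat3 (66.5) and Il2ra (3.05) at the bottom, below Il15 (5.15).

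**Figure D1:**
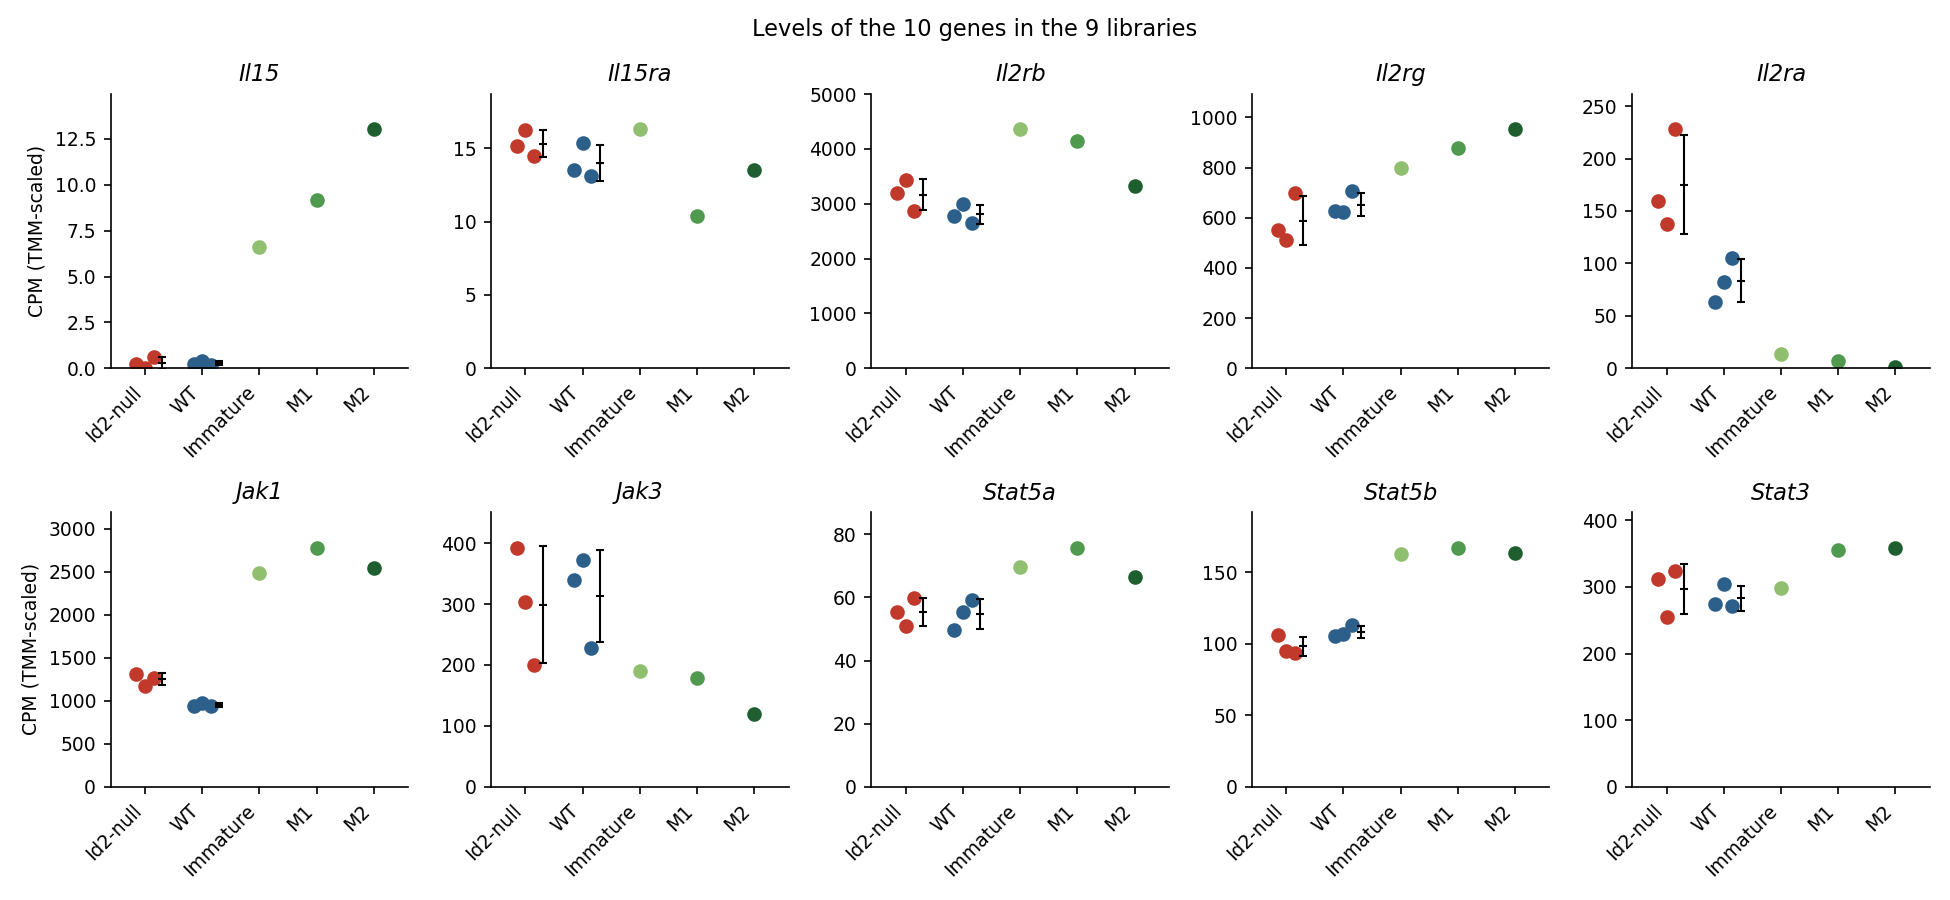
Level of each gene (CPM, TMM-scaled over 9 libraries, linear axis from 0) in the Id2-null and WT cultures and the Immature, M1 and M2 libraries. Points are libraries and bars are the mean ± SD of 3 libraries. Il2ra and Jak1 are the genes whose Id2-null and WT points do not overlap, and Il15 is near 0 in the cultures and at 6.62 to 13.03 CPM in the sorted libraries.

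The first comparison, Id2-null against WT cultures, asks whether loss of ID2 changed the IL-15 receptor and its signalling genes. Of the 9 genes that passed the expression filter, 0 were called by edgeR's quasi-likelihood test at an adjusted p under 0.05, where 3.42% of all 11022 genes tested were called. At an unadjusted p under 0.05 there were 2, Il2ra and Jak1, against 14.6% of all genes, and DESeq2 called the same 2, against 5.26%. With the replicate number as a block 1 was called, Il2ra, against 7.58% of all genes. The 2 groups did not overlap in Il2ra and Jak1, 2 of 9 genes, as in 20.4% of all genes tested. The median log2 fold change of the 9 was 0.07, beside 0.01 over all genes. Il15, the remaining gene, was below the filter.

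Il15, the ligand, was at the limit of detection in the cultures. It had 1, 0 and 3 counts in Id2-null replicates 1 to 3 and 1, 2 and 1 in WT replicates 1 to 3, so every cultured library was at or below the limit of 3 counts and no fold is given. Il15ra, the chain that presents IL-15 to neighbouring cells, was low and even. It stood at 15.2, 16.3 and 14.5 CPM in the Id2-null cultures and 13.5, 15.4 and 13.1 CPM in WT replicates 1 to 3, and the groups overlapped. The log2 fold change was 0.13 (SE 0.18, 95% interval -0.27 to 0.54, edgeR adjusted p = 0.805). Each library rested on 65 to 77 counts of Il15ra.

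Il2rb, the chain through which NK cells sense IL-15, was abundant in both genotypes. It stood at 3194, 3437 and 2874 CPM in Id2-null replicates 1 to 3 and at 2777, 2999 and 2646 CPM in WT. Each Id2-null library was above the WT library of the same number, by 1.086- to 1.1502-fold, but the groups overlapped. The log2 fold change of 0.18 had a 95% interval from -0.10 to 0.46 (edgeR adjusted p = 0.581, and 0.343 with the replicate block). Il2rg, the gamma chain shared with the receptors for IL-2, IL-4, IL-7, IL-9 and IL-21, stood at 551.8, 513 and 699 CPM in the Id2-null cultures and 628, 623 and 705 CPM in WT. The highest library of each genotype was replicate 3, and the groups overlapped. Its log2 fold change was -0.14 (95% interval -0.48 to 0.19, edgeR adjusted p = 0.741), and the level was lower in Id2-null in 3 of 3 pairs (ratios 0.879, 0.822 and 0.992). The log2 fold change was -0.29 without Id2-null replicate 3 (95% interval -0.56 to -0.027, adjusted p = 0.231) and -0.053 without Id2-null replicate 2. The gene is X-linked, and sex moves with genotype as given above.

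Il2ra, which encodes CD25, had the largest difference of the 9 genes. Its values were 160, 138 and 228 CPM in Id2-null replicates 1 to 3 and 63.3, 82.6 and 105 CPM in WT replicates 1 to 3. All Id2-null libraries were above all WT libraries, and replicate 3 was the highest in both genotypes. Within replicate numbers the Id2-null level was 2.52-, 1.67- and 2.17-fold that of WT. The log2 fold change was 1.07 (SE 0.24, 95% interval 0.50 to 1.64), with an edgeR adjusted p of 0.0640, and it passed with the replicate block (1.07, SE 0.13, adjusted p = 0.00215). It also passed with DESeq2 (adjusted p = 0.000840), without Id2-null replicate 3 (0.0374) and without replicate 3 of both genotypes (1.94e-05). These, with the block, are the 4 of 14 alternatives in which it passed. It did not pass with limma voom (adjusted p = 0.0672) or with library sizes alone in edgeR (0.0919). Nor did it pass in edgeR without Id2-null replicate 1 (0.156) or without WT replicate 1 (0.218) or 2 (0.217), among others. Its neighbour Il15ra, given above, differed by a log2 fold change of 0.13. Among markers of T cells, which can carry CD25, some went the same way and some did not. The summed level of the 8 genes was 183 to 331 CPM in the Id2-null cultures and 57.2 to 220 CPM in WT libraries. Cd3d (115 ± 42.2 against 27.9 ± 20.02 CPM) and Cd3g (108 ± 27.6 against 36.4 ± 30.6 CPM) were higher in every Id2-null library than in any WT library. Cd3e (14.7 ± 8.49 against 39.1 ± 37.5 CPM) and Trac (5.16 ± 0.928 against 8.56 ± 4.68 CPM) had lower means in Id2-null, Cd8a had a mean of 1.07 CPM in both, and Cd4 and Foxp3 had 0 counts in all 6 libraries. Their part in the Il2ra difference was not tested. In bulk RNA a change in the share of cells that express a gene and a change in RNA per cell cannot be told apart.

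**Figure D2:**
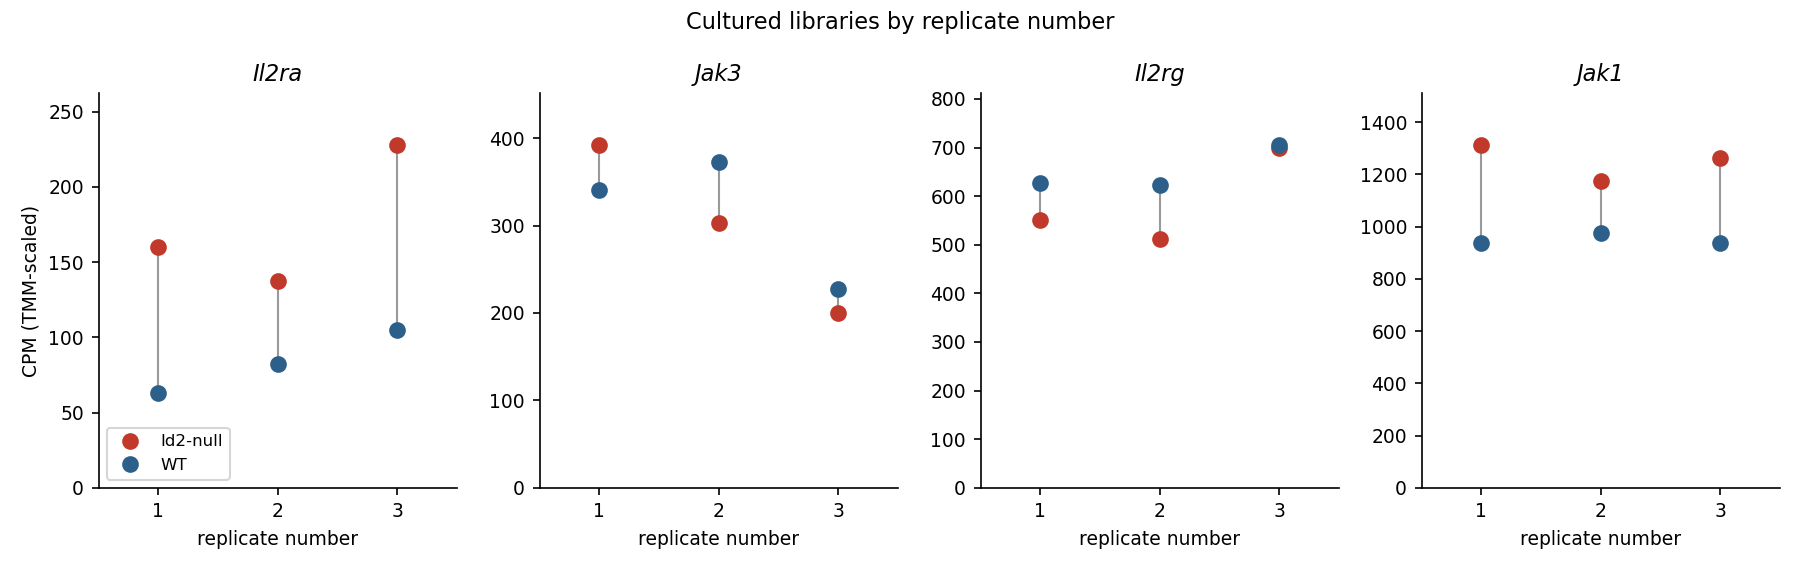
Level (CPM, TMM-scaled, linear axis from 0) of Il2ra, Jak3, Il2rg and Jak1 in each cultured library, by replicate number, with a grey line joining the Id2-null (red) and WT (blue) library of the same number. Il2ra is higher in Id2-null in 3 of 3 pairs, and Jak3 is lowest in replicate 3 of both genotypes.

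Jak1, the kinase bound to CD122, was higher in every Id2-null library than in any WT library. It stood at 1313, 1173 and 1263 CPM in the Id2-null cultures and 936, 976 and 935 CPM in WT replicates 1 to 3, with ratios within replicate numbers of 1.40, 1.20 and 1.35. The log2 fold change was 0.40 (SE 0.11, 95% interval 0.15 to 0.65), which did not pass in edgeR (adjusted p = 0.106, and 0.0527 with the replicate block) and passed in DESeq2 (adjusted p = 0.0250). Jak3, the kinase bound to the gamma chain, varied by replicate number more than by genotype. It stood at 392.2, 303 and 201 CPM in the Id2-null cultures and 340, 372 and 227 CPM in WT, and replicate 3 was at 0.576 and 0.638 times the mean of replicates 1 and 2. The log2 fold change was -0.06 with a wide interval of -0.71 to 0.59 (edgeR adjusted p = 0.956), which narrowed to -0.36 to 0.20 with the replicate block. Its sign turned without Id2-null replicate 3 (0.15) and without WT replicate 2 (0.078).

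None of the 3 STAT genes was called between the genotypes, and the groups overlapped for each. Stat5a was at 55.5, 51.0 and 60.0 CPM in the Id2-null cultures and 49.8, 55.4 and 59.3 CPM in WT replicates 1 to 3 (log2 fold change 0.02, 95% interval -0.27 to 0.32, edgeR adjusted p = 0.968). Stat5b was at 106, 94.7 and 93.6 CPM in the Id2-null cultures and 105, 107 and 113 CPM in WT (-0.14, interval -0.39 to 0.11, adjusted p = 0.643). The STAT5 genes therefore had estimates on either side of 0. Stat3, which responds mainly to IL-6, IL-10 and IL-21 and to a lesser degree to IL-15, was at 312, 254 and 325 CPM in the Id2-null cultures and 274, 305 and 271 CPM in WT (0.07, interval -0.22 to 0.37, adjusted p = 0.864). The sign of the Stat5a difference turned without Id2-null replicate 3 (-0.043) or WT replicate 1 (-0.049), and that of Stat3 without replicate 3 of both genotypes (-0.030). Stat5a and Stat5b are close copies, and reads that match both may have been split or dropped.

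The share of Stat5a in the summed Stat5a and Stat5b counts does not depend on library scaling. It was 34.4, 35.0 and 39.0% in the Id2-null cultures and 32.1, 34.2 and 34.4% in WT replicates 1 to 3. The means were 36.1 ± 2.54% and 33.6 ± 1.26% (SD, n = 3 each), a difference of 2.56 percentage points (two-sided exact permutation test, p = 0.2, where 0.1 is the smallest p the design allows). The share was higher in Id2-null in 3 of 3 pairs of the same replicate number, and with the replicate block the exact permutation p was 0.25, the smallest that 3 pairs allow. Without Id2-null replicate 3 the difference was 1.10 points. In the sorted libraries the share was 30.0% in Immature (exact binomial 95% interval 27.1 to 33.1%), 31.2% in M1 (28.4 to 34.2%) and 28.9% in M2 (26.0 to 32.0%). These intervals cover counting error only.

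**Figure D3:**
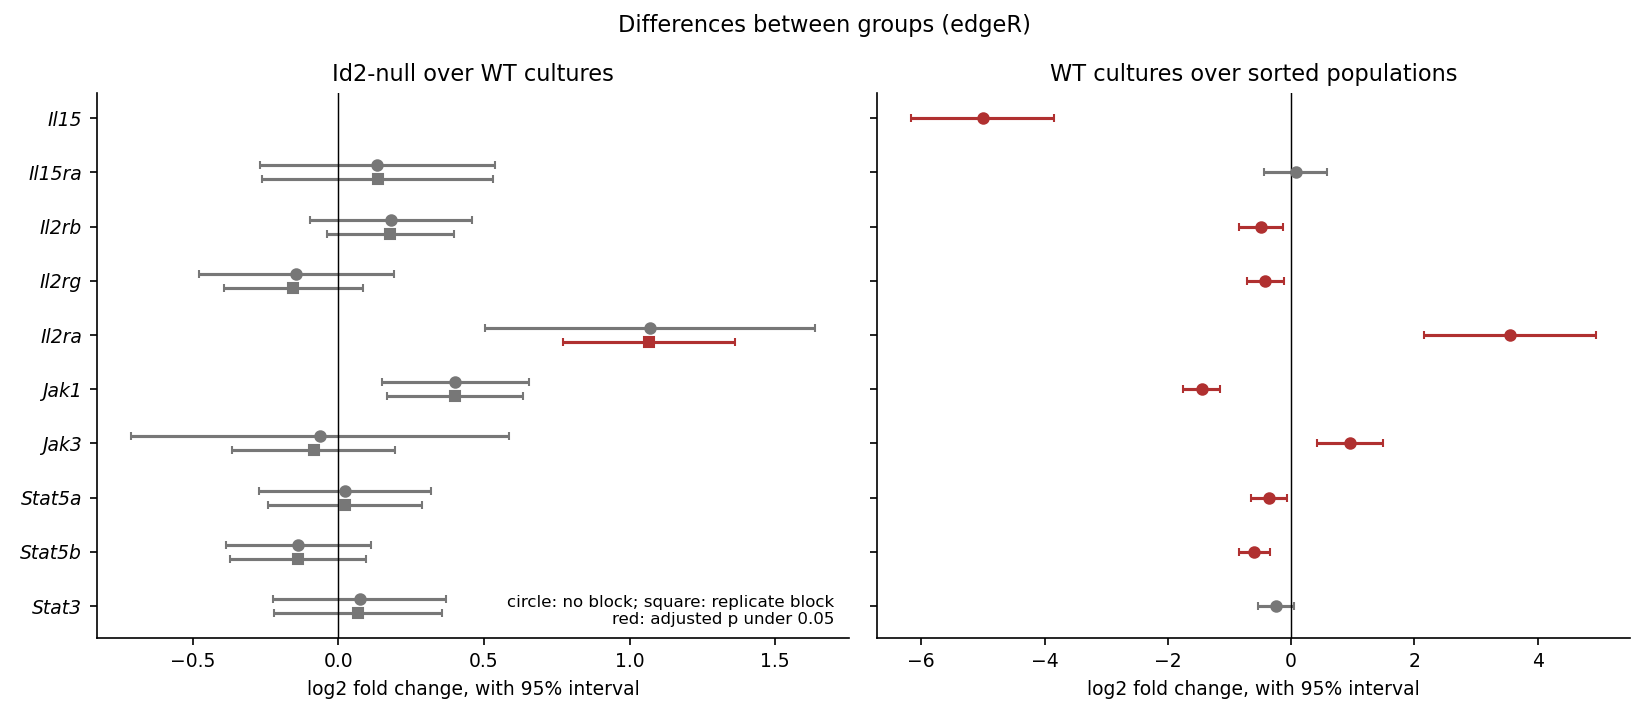
Log2 fold change with its 95% interval from edgeR for each gene. The Il15 value rests on 4 counts in WT. Left, Id2-null over WT cultures, without (circles) and with (squares) the replicate block, Il15 not tested; right, WT cultures over the sorted populations. Red marks an adjusted p under 0.05, which on the left is Il2ra with the block only (0.00215) and on the right is 8 of 10 genes.

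WT cells after 7 days in IL-15 differed from the sorted wild-type populations in most of these genes. The 3 sorted libraries were taken as 1 group, whose spread holds the differences between Immature, M1 and M2. Of the 10 genes 2 rose (Il2ra and Jak3) and 6 fell (Il15, Jak1, Stat5b, Il2rb, Il2rg and Stat5a), where 56.8% of all 11117 genes tested were called (edgeR). The values of the groups did not overlap for those 8 genes, as for 65.7% of all genes. Most of these genes were therefore called, as were most of all genes, and the share was higher among the 10. Whether that gap exceeds what so few genes would give was not tested. The sizes of single changes are what sets these genes apart from each other. Culture, and everything else in which these preparations differed, cannot be told apart here, and the WT cultures also serve as controls in the comparison with Id2-null cells.

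Il2ra, at 63.3 to 105 CPM in WT cultures, stood at 13.5, 6.51 and 1.503 CPM in the Immature, M1 and M2 libraries. Its log2 fold change was 3.55 (SE 0.58, edgeR adjusted p = 0.00243), so that the gene with the lowest level per kilobase in sorted cells was among the moderately expressed ones after culture. Jak3 rose from 190, 178 and 120 CPM in Immature, M1 and M2 to 227 to 372 CPM in WT cultures (log2 fold change 0.95, SE 0.23, adjusted p = 0.00904). Jak1 went the other way, from 2491, 2780 and 2542 CPM in the sorted libraries to 935 to 976 CPM, a difference of -1.45 in log2 (SE 0.13, adjusted p = 7.77e-05). The kinases of the same receptor pair therefore moved in opposite directions, and the Id2-null level of Jak1, 1250 ± 70.7 CPM, was between those of WT cultures and sorted cells.

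Stat5b fell from 163, 167 and 163 CPM in the sorted libraries to 105 to 113 CPM in WT cultures (log2 fold change -0.60, SE 0.11, edgeR adjusted p = 0.00179). Stat5a had 69.8, 75.8 and 66.4 CPM in the sorted libraries and 49.8 to 59.3 CPM in WT cultures (-0.36, SE 0.13, adjusted p = 0.0402). Il2rb had 4358, 4152 and 3323 CPM in the sorted libraries against 2646 to 2999 CPM (-0.48, SE 0.16, adjusted p = 0.0267), and Il2rg 797, 877 and 952 CPM against 623 to 705 CPM (-0.42, SE 0.13, adjusted p = 0.0256). The last 3 calls were small in size and fragile. The call of Il2rb was lost without WT replicate 1, 2 or 3 (adjusted p 0.110, 0.0710 and 0.0957) or M1 (0.0917), and that of Il2rg without WT replicate 1 or 2 (0.111 and 0.108), M1 (0.0667) or M2 (0.0575). That of Stat5a was lost without WT replicate 1, 2 or 3 (0.186, 0.129 and 0.0540), Immature (0.0549) or M1 (0.123), with DESeq2 (0.0800) and with no expression filter (0.0569). With library sizes alone as scaling, which moved the median log2 fold change of all genes from -0.02 to 0.15, all 3 were lost (0.123, 0.150 and 0.268). Il15ra (10.4 to 16.3 CPM sorted, 13.1 to 15.4 CPM cultured, adjusted p = 0.801) and Stat3 (298 to 359 against 271 to 305 CPM, adjusted p = 0.134) were not called.

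Il15 fell from 6.62, 9.17 and 13.03 CPM in Immature, M1 and M2 to 0.193 to 0.416 CPM in WT cultures (edgeR adjusted p = 0.000126). The WT level rests on too few counts for a fitted fold. In counts the gene had 116 in the sorted and 4 in the WT cultured libraries, a scaled ratio of 35.6 with a counting interval of 13.5 to 133. Myeloid cells, which are known to make IL-15, had markers in the sorted libraries. The summed level of 12 myeloid genes was 1231, 1417 and 1873 CPM in Immature, M1 and M2 and 448 to 675 CPM in the WT cultures, and Itgax, which NK cells also express, made up 455 ± 115 CPM of the latter. Lyz2 stood at 56.8, 60.1 and 231 CPM in the sorted libraries, Csf1r at 36.9, 36.7 and 158 CPM and S100a8 at 26.7, 29.0 and 163 CPM. These were highest in M2, but Itgax (960, 1130 and 837 CPM) and Zbtb46 (4.58, 3.38 and 2.25 CPM) were lowest there. In the WT cultures Lyz2, Adgre1, Fcgr1, S100a8, S100a9 and Flt3 had 0 counts, and Csf1r was at up to 0.416 CPM. Other genes of the list were not lost. The WT culture means of Cst3, Cd68, Cd14 and Zbtb46 (75.4, 17.5, 2.29 and 3.15 CPM) were within the range of the sorted libraries. Those of Cst3 and Cd68 were above Immature and M1 (72.8 and 72.4 CPM for Cst3) and below M2 (107 and 35.3 CPM). The part of other cells in the Il15 values was not tested.

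Between the sorted populations Il2ra, Jak3 and Il15 differed by more than 1.5-fold between Immature and M2. These are 3 of 10 genes, where 23.2% of the 9019 genes with at least 10 CPM in the higher library did so. With 1 library per population there is no replicate check and no test, and intervals cover counting error only. Ratios were scaled over these 3 libraries. Il2ra had 53, 27 and 6 counts in Immature, M1 and M2, a ratio of M2 to Immature of 0.108 (95% interval 0.0379 to 0.251). Jak3 had 747, 738 and 477 counts, a ratio of 0.609 (0.542 to 0.684), so that the difference was mainly between M1 and M2. Il15 went the other way with 26, 38 and 52 counts, a ratio of 1.91 (1.17 to 3.18).

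The remaining genes differed less. Il2rb had 17112, 17211 and 13263 counts, a ratio of M2 to Immature of 0.739 (0.722 to 0.756), and Il2rg had 3128, 3634 and 3801, a ratio of 1.16 (1.10 to 1.22). Il2rb, which encodes CD122, was thus lowest in M2 while Il2rg, which encodes the shared gamma chain, was highest there. Jak1 had a ratio of 0.989 (0.962 to 1.02), Stat5b of 0.973 (0.871 to 1.09), Stat5a of 0.922 (0.776 to 1.10), Stat3 of 1.17 (1.08 to 1.26) and Il15ra of 0.804 (0.549 to 1.17). Markers of B cells were highest in the M2 library, with 6 genes summing to 22.2, 26.3 and 85.4 CPM in Immature, M1 and M2. Those of myeloid cells were highest there too, except Itgax and Zbtb46, which were lowest in M2. The summed level of the T cell genes was highest in Immature, at 556, 91.4 and 149 CPM, and so were Cd3d, Cd3e, Cd3g and Trac singly. The other genes of that sum, Cd4, Cd8a, Cd8b1 and Foxp3, were highest in M2. Foxp3, the factor of regulatory T cells, which carry CD25, stood at 1.27, 1.69 and 2.51 CPM. The part of these cells in the differences was not tested.

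**Figure D4:**
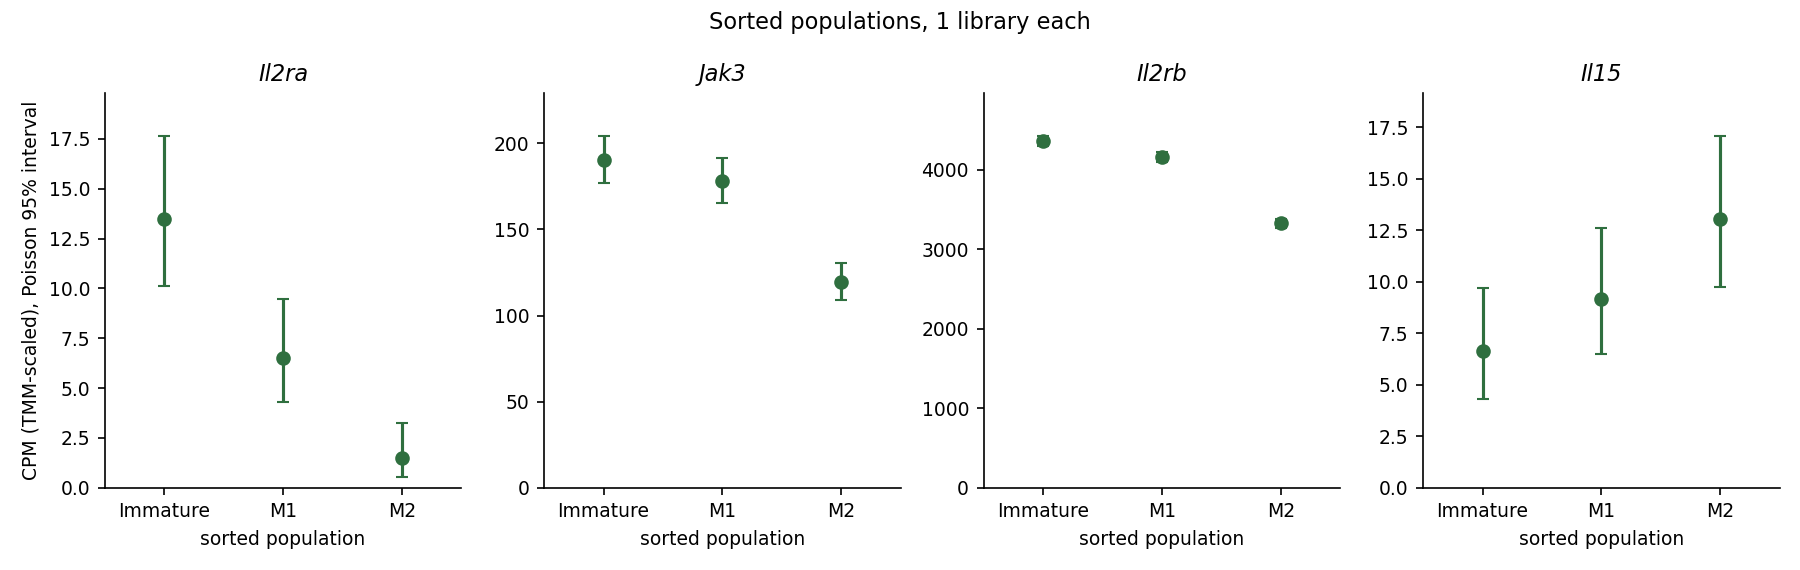
Level (CPM, TMM-scaled, linear axis from 0) of Il2ra, Jak3, Il2rb and Il15 in the Immature, M1 and M2 libraries, 1 library each. Bars are exact Poisson 95% intervals of the counts. From Immature to M2 the level of Il2ra goes from 13.5 to 1.503 CPM and that of Il15 from 6.62 to 13.03 CPM.

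Receptors for IL-4 and IL-21, which pair with the gamma chain, rose in Id2-null cultures. Of the 8 genes of this list, which includes Il2rb, Il2rg, Il2ra and Il15ra, 6 were tested and 2 rose, Il4ra and Il21r, with a median log2 fold change of 0.63. Over all genes tested 3.42% were called, and the median was 0.01. Il4ra, the IL-4 receptor alpha chain, rose from 177 ± 19.8 to 455 ± 63.7 CPM (SD, n = 3 each, log2 fold change 1.37, SE 0.15, edgeR adjusted p = 0.00202). Il21r rose from 114 ± 17.4 to 290 ± 37.5 CPM (1.35, SE 0.15, adjusted p = 0.00249). Both calls held in the 14 alternatives run. Il7r and Il9r were below the filter in the cultures, at up to 1.54 and 0.220 CPM. Il7r, the specific chain for IL-7, stood at 256, 45.1 and 34.6 CPM in Immature, M1 and M2, and fell to 0.946 ± 0.106 CPM in WT cultures (adjusted p = 0.00429). Il21r rose in WT cultures from 91.4, 58.9 and 59.6 CPM in Immature, M1 and M2 (log2 fold change 0.71, adjusted p = 0.0152), a call that was lost without WT replicate 3 or M1 (0.0574 to 0.0610).

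Of the 6 other JAK and STAT genes 1 rose in Id2-null cultures, where 3.42% of all genes were called. The gene was Stat4, which carries the IL-12 signal, from 268 ± 18.5 to 460 ± 23.5 CPM (log2 fold change 0.78, SE 0.11, edgeR adjusted p = 0.00849), a call that was lost without WT replicate 1 (0.0579) or 2 (0.0550). Jak2 was at 239 ± 35.2 against 189 ± 7.29 CPM in WT (adjusted p = 0.285). In WT cultures against sorted cells 4 of the 6 fell, Stat4, Tyk2 and Stat6 among them, and 0 rose, where 56.8% of all genes were called. Stat4 went from 457 to 523 CPM in the sorted libraries to the WT level above (log2 fold change -0.86, adjusted p = 0.000600). Tyk2, a kinase of the IL-12 and interferon receptors, went from 225, 333 and 313 CPM in Immature, M1 and M2 to 176 ± 11.9 CPM (-0.71, adjusted p = 0.00558).

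Known targets of STAT5 moved both ways in Id2-null cultures. Of the 20 tested, 2 rose (Socs2 and Lta) and 2 fell (Gzmb and Id2, the deleted gene), beside 3.42% of all genes, with a median log2 fold change of 0.16. With the replicate block 4 were higher, Socs3 and Pim2 besides, and 5 lower, Cish, Prf1 and Dusp5 besides, where 7.58% of all genes were called. Cish, a feedback inhibitor that STAT5 induces, was at 51.7, 48.0 and 100 CPM in the Id2-null cultures and 164, 149 and 201 CPM in WT replicates 1 to 3 (log2 fold change -1.35, SE 0.30, edgeR adjusted p = 0.0692, and 0.00159 with the block). All Id2-null libraries were below all WT libraries, and replicate 3 was the highest in both. Socs2, another inhibitor of this pathway, rose from 47.1 ± 3.38 to 92.8 ± 17.8 CPM (0.98, SE 0.16, adjusted p = 0.0128), so that these 2 feedback genes had opposite signs. The call of Socs2 was lost without Id2-null replicate 1 or WT replicate 1 or 2 (0.0615 to 0.0741). Lta, which encodes lymphotoxin alpha, rose from 7.44 ± 2.21 to 17.6 ± 3.55 CPM (adjusted p = 0.0479), a call that was lost in 8 of 14 alternatives, among them each left-out library except Id2-null replicate 3. Gzmb, the cytotoxic protease granzyme B, fell from 8909 ± 476.5 to 2287 ± 176 CPM, a difference of -1.96 in log2 (SE 0.12, adjusted p = 0.000197).

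The survival and growth targets were not called in the genotype comparison. Bcl2, which keeps NK cells alive downstream of IL-15, was at 752 ± 104 CPM in the Id2-null cultures and 573 ± 65.7 CPM in WT cultures (log2 fold change 0.40, edgeR adjusted p = 0.237). Bcl2l1 was at 114 ± 11.01 against 99.0 ± 10.7 CPM (adjusted p = 0.530), Myc at 189 ± 53.1 against 153 ± 19.3 CPM (0.603) and Pim1, a kinase induced by STAT5, at 255 ± 111 against 278 ± 105 CPM (0.948). Pim1, Pim2 and Prf1 were lowest in replicate 3 of both genotypes, as was Jak3. Pim2 was at 899, 853 and 408 CPM in the Id2-null cultures and 407, 373 and 198 CPM in WT replicates 1 to 3 (adjusted p = 0.244, and 0.000549 with the block). Of 11 apoptosis genes downstream of IL-15, 0 were called with edgeR, with or without the block, or with DESeq2, and 2 had an unadjusted p under 0.05. Over all genes 3.42% (edgeR), 7.58% (with the block) and 5.26% (DESeq2) were called, and 14.6% had an unadjusted edgeR p under 0.05.

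**Figure D5:**
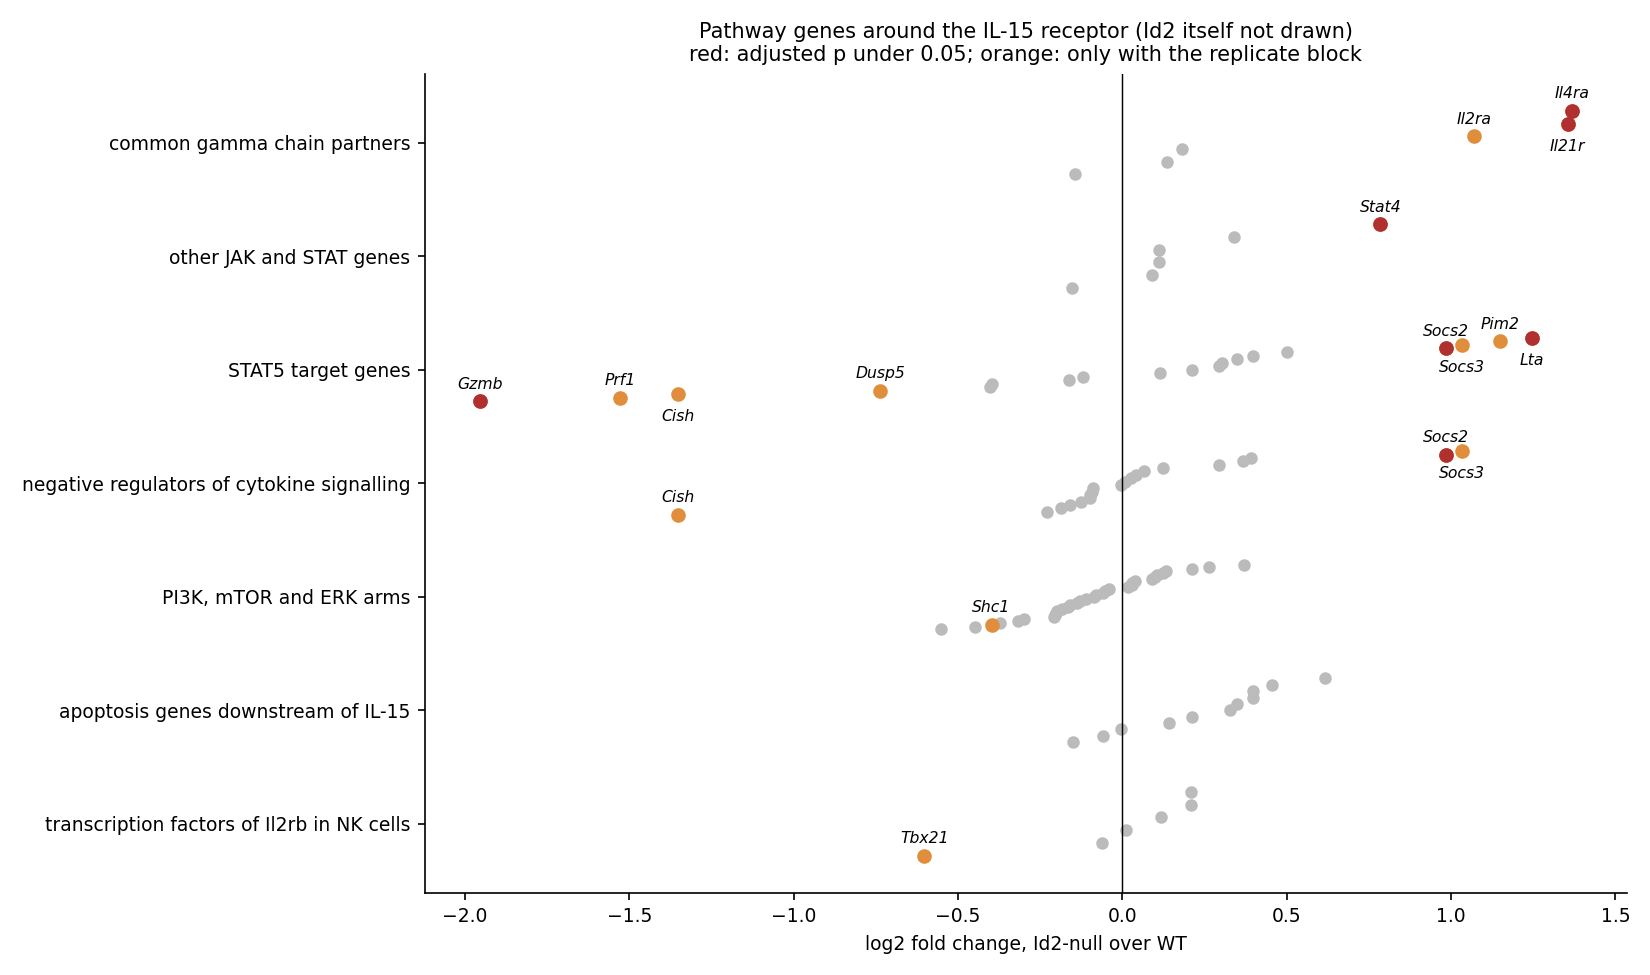
Log2 fold change, Id2-null over WT cultures, of each tested gene in 7 lists around the IL-15 receptor, 1 point per gene and list, spread vertically within a list, with Id2 itself not drawn. Red points have an edgeR adjusted p under 0.05 and orange points with the replicate block only. Called genes lie on both sides among STAT5 targets, and Il4ra and Il21r are the highest of the gamma chain partners.

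Among 20 negative regulators of cytokine signalling 1 rose in Id2-null cultures (Socs2) and 0 fell, and with the replicate block Socs3 was higher and Cish lower besides. Over all genes 3.42% were called, and 7.58% with the block. Socs3, which inhibits signalling through STAT3 above all, was at 21.4 ± 3.45 against 10.5 ± 3.85 CPM in WT (log2 fold change 1.03, SE 0.28, edgeR adjusted p = 0.0979, and 0.0189 with the block). Socs1 was at 77.1 ± 0.433 against 63.1 ± 9.87 CPM (adjusted p = 0.375). In the PI3K, mTOR and ERK arms of the receptor 0 of 33 genes were called (edgeR), 3 had an unadjusted p under 0.05, a share below the 14.6% of all genes, and DESeq2 called 0. With the replicate block Shc1, the adaptor that links CD122 to the ERK arm, was lower at 103 ± 19.7 against 136 ± 21.6 CPM (adjusted p = 0.0382). Of 6 transcription factors of Il2rb in NK cells 0 were called by edgeR, 1 had an unadjusted p under 0.05 and DESeq2 called 1. Over all genes these shares were 3.42%, 14.6% and 5.26%. Tbx21, which encodes T-bet, was at 89.3 ± 8.55 against 136 ± 18.7 CPM (edgeR log2 fold change of -0.60, with adjusted p = 0.0566, and 0.00710 with the block) and Eomes at 519 ± 14.6 against 451 ± 37.3 CPM (adjusted p = 0.482).

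In WT cultures against sorted cells the lists held calls in both directions, except that of other JAK and STAT genes, given above, in which called genes only fell. Over all genes 56.8% were called. Of the 20 STAT5 targets 7 rose and 5 fell. Cish rose from 22.7, 19.8 and 15.03 CPM in Immature, M1 and M2 to 171 ± 27.0 CPM (log2 fold change 3.16, SE 0.19, edgeR adjusted p = 1.87e-05), Socs2 from 16.6, 8.44 and 2.76 CPM (2.35, adjusted p = 0.00517) and Bcl2 from 363, 306 and 192 CPM (1.00, adjusted p = 0.00569). Cdkn1a, a cell cycle inhibitor, rose from 3.06, 9.89 and 13.5 to 166 ± 7.86 CPM (adjusted p = 0.000192). Mcl1, another survival gene of NK cells, fell from 380, 463 and 562 CPM to 187 ± 22.4 CPM (-1.32, adjusted p = 0.000370). Socs3 fell from 74.4, 66.6 and 32.1 CPM (-2.45, adjusted p = 0.00135).

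The lists that follow also held calls in both directions in culture, where 56.8% of all genes were called. Of 33 genes of the PI3K, mTOR and ERK arms 4 rose and 11 fell, with Rps6kb1, the S6 kinase, at 76.0 ± 2.26 CPM in WT cultures against 39.1 to 42.8 CPM sorted (log2 fold change 0.89, edgeR adjusted p = 0.000394). Grb2, an adaptor of the ERK arm, fell to 105 ± 10.5 CPM from 186 to 220.5 CPM sorted (-0.96, adjusted p = 0.000409). Of the 20 negative regulators 5 rose and 8 fell, and of the 11 apoptosis genes 4 rose and 3 fell, with the death effectors Bax and Bak1 among those that rose (log2 fold changes 1.119 and 0.66). Of the 6 transcription factors 3 fell and 1 rose. Tbx21 fell from 369, 593 and 809 CPM in Immature, M1 and M2 to 136 ± 18.7 CPM (-2.11, adjusted p = 0.000518) and Ets1 from 1264 to 1367 CPM to 595 ± 71.4 CPM (-1.15, adjusted p = 0.000278). Eomes, at 402 to 693 CPM sorted, was not called (adjusted p = 0.305).

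Genes whose levels followed those of Il2rb and Il2ra most closely over the 9 libraries were found by Pearson correlation of log2 CPM, among the 7890 genes whose average log2 CPM was 4 or more. The libraries fall into cultured and sorted cells, and the values for Il2ra describe mainly that division. Il2rb in M2 (3323 CPM) lay within the Id2-null range (2874 to 3437 CPM). Its values therefore also follow the difference of M2 from Immature and M1. For Il2rb they were Pdha1 (r = 0.981), Plxnc1 (0.979), Socs3 (0.967), 4930486L24Rik (0.966) and Cnp (0.958). Plxnc1, a semaphorin receptor, stood at 121, 92.4 and 31.3 CPM in Immature, M1 and M2 and at means of 18.6 and 9.79 CPM in the Id2-null cultures and WT cultures. For Il2ra they were Yeats2 (r = 0.998), Cables1 (0.993), Ncl (0.993), Gpatch4 (0.992) and Gemin5 (0.990). Ncl, which encodes the nucleolar protein nucleolin, stood at 682, 545 and 397 CPM in Immature, M1 and M2 and at means of 1795 and 1325 CPM in the Id2-null cultures and WT cultures. Cables1 had the same order, with 14.0, 10.1 and 3.01 CPM in the sorted libraries and means of 169 and 92.3 CPM in the Id2-null cultures and WT cultures.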

How the data were processed

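Per the file headers, the authors deposited raw counts per Entrez gene with a gene length in bases. Per the submitters' processing notes, Subread, featureCounts and limma were used, with the build GRCm38 (mm10). Versions, annotation, strand setting and the handling of reads with several matches were not given in the sources used here. Symbols came from RefSeq (GRCm38.p6) for 25275 of 27179 identifiers.

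Counts were tested in R 4.3.3 with edgeR 4.0.16: filterByExpr (minimum count 10), TMM scaling, robust quasi-likelihood fits and Benjamini-Hochberg adjustment over all genes tested, called at an adjusted p under 0.05. Samples were grouped by title. Id2-null was compared with WT (3 against 3) and WT with the 3 sorted libraries as 1 group (3 against 3). "Rose" and "fell" mark genes that were called. Alternatives were DESeq2 1.42.0, limma 3.58.1 (voom), other scalings, no filter, all 9 libraries in 1 fit, left-out libraries and the replicate number as a block. Same-numbered cultures deviated together (r = 0.353, 0.242 and 0.418 across genes for replicates 1, 2 and 3), so the numbers were taken to pair the samples. Cultures of different number were at 0.189 (Id2-null 1 with WT 2) and 0.135 (Id2-null 2 with WT 1), and at -0.397 to -0.262 where 1 of them was replicate 3. Replicates 1 and 2 were therefore only weakly told apart, which limits the calls made with the block alone. The fit was tested on simulated data.

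The genes and lists were chosen with earlier results of these data known, so adjustment was over all genes only. Named genes were the 10 genes, up to 6 called genes per list between genotypes and up to 3 for culture by adjusted p, a fixed set (Cish, Socs1, Socs2, Socs3, Pim1, Bcl2, Bcl2l1, Myc, Stat4, Jak2, Tbx21 and Eomes) and the 5 genes most like Il2rb and Il2ra. Il9r, Pim2, Prf1, Dusp5, Shc1, Stat6 and single marker genes fall outside this rule and were added after their values were seen. Some genes that the rule names are not reported here.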

Additional observations from a re-analysis of the deposited data

How the results depend on the processing

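Between genotypes, the number of the 10 genes called went from 0 to 2 with DESeq2 (Il2ra and Jak1), 1 with the replicate block and 1 without replicate 3 of both genotypes (Il2ra each time), and ranged from 0 to 1 with single libraries left out. Over all genes, 377 calls became 580 with DESeq2, 835 with the replicate block, 1065 without replicate 3 of both genotypes, and 121 (without WT replicate 1) to 662 (without Id2-null replicate 3) with single libraries left out. The pairing changed no other call among the 10 genes. Signs turned for uncalled genes only: Jak3 without Id2-null replicate 3 (0.15) or WT replicate 2 (0.078), Stat5a without Id2-null replicate 3 (-0.043) or WT replicate 1 (-0.049), and Stat3 without replicate 3 of both genotypes (-0.030), with left-out ranges of -0.30 to 0.15 for Jak3 and -0.049 to 0.083 for Stat5a. Between WT cultures and sorted cells, 8 calls became 5 with library sizes alone and 5 to 7 with single libraries left out. The 5 that passed in all 12 alternatives were Il2ra, Il15, Jak1, Jak3 and Stat5b. Il15ra, uncalled, ranged from -0.091 (without M1) to 0.23 with single libraries left out. With library sizes alone 3726 genes were higher and 2604 lower, against 3047 and 3273. For M2 against Immature 3 genes became 1 (Jak3) at a minimum of 50 CPM, since Il2ra and Il15 were below that level in every sorted library. At this minimum 18.0% of 4656 genes differed by more than 1.5-fold. The cause of the other changes was not tested. Depth limits Il15 in the cultures and Il2ra in M2, at 6 counts.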
